A study of Arabidopsis thaliana with 21 samples.

Results

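A set of 21 genes gave a signal above the array median in Arabidopsis thaliana roots taken from soil and a dim signal in every root sample from plates. They were chosen by their measured signals, not by function. A probe set, the group of array probes that reads out 1 transcript, had to lie above its array's 50th percentile on all 6 soil arrays and below its array's 40th percentile on all 15 plate arrays. It also had to have exactly 1 annotated gene. Of 13513 probe sets with 1 gene, 5409 met the soil criterion, 5129 met the plate criterion, and 21 met both. A further 20 probe sets met both criteria but had no gene (19) or several (1) in the annotation, and they are not described. The genes AT4G33720 and AT3G29430 were left out by name, and neither met the criteria. Because the difference between soil and plates selected these genes, it is described here without a test.

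All samples were roots of the accession Col-0 (Columbia), with 3 arrays in each of 7 groups. Groups ATGE_3 and ATGE_9 grew on soil under continuous light at 23 °C and 65% relative humidity, and the labels of ATGE_3 record soil contamination of the sampled tissue. The plate groups comprised ATGE_93, kept under long days at 22 °C on 1x MS medium that held 1% sucrose, and 2 pairs kept under continuous light at 20 °C. In each pair 1 group was on 0.5x GM medium (ATGE_94 and ATGE_98) and the other on that medium with 5% sucrose listed (ATGE_95 and ATGE_99). The labels compare most plants of ATGE_94 and ATGE_95 with reference plants aged 7 days, and ages of the other groups are not stated there. Substrate, temperature, medium and sampling set therefore cannot be told apart in any contrast of soil with plates. Whether the replicates came from independent cultures is not stated, and the p-values reflect the spread between these samples alone.

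Values are signals on the linear scale of the array software, with no unit of concentration, and levels of different genes are not compared with each other because probe sets differ in response. Each array's 40th percentile fell between 22.9 and 28.0, and its 50th percentile between 38.7 and 45.2. A signal under the 40th percentile is called dim here, which does not show that a transcript was missing. Arrays of 1 group correlated with r between 0.949 and 0.967 over all probe sets on the log2 scale, as a description across genes. The whole root was measured, so fewer cells that express a gene and less RNA per cell cannot be told apart.

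As background, plant cells read many signals at the root surface through calcium. Calcium entry is sensed by calmodulin-like proteins, which carry EF-hand motifs that bind the ion, and transcription factors of the AP2/ERF family are among those that respond to jasmonate, ethylene, wounding and drought. Proteins with a TIR or a RIN4-like domain are known from immune signalling. Tetraspanins and flotillins organise patches of membrane, and MATE carriers and class III peroxidases act in transport across membranes and in the cell wall. Roles below are given only where they are well established, and they were not used to choose the genes.

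All 21 genes are protein coding in the RefSeq table of assembly TAIR10.1, and 3 have a symbol there other than the locus tag: ORA47, CML37 and TET9. They lie on all 5 chromosomes, with 7 genes on chromosome 1, 4 on chromosome 2, 2 on chromosome 3, 2 on chromosome 4 and 6 on chromosome 5. Mean signals over the 6 soil arrays ran from 56.6 for AT1G58420 to 407 for ORA47, with a median over the genes of 85.5. The highest of the 15 plate arrays ran from 2.66 for AT2G17660 to 23.7 for AT1G35210. Because the plate signals were dim, folds are lower bounds with each dim plate array set at its 40th percentile. For ATGE_3 against ATGE_94 they ran from at least 2.02-fold (AT5G57510) to at least 12.8-fold (ORA47), with a median of 2.93. For ATGE_9 against ATGE_98 they ran from at least 1.98-fold (AT2G17660) to at least 19.5-fold (ORA47), with a median of 4.03. On its lowest soil array a gene stood between the 50.3 percentile (AT5G57510) and the 89.8 percentile (ORA47).

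**Figure D1:**
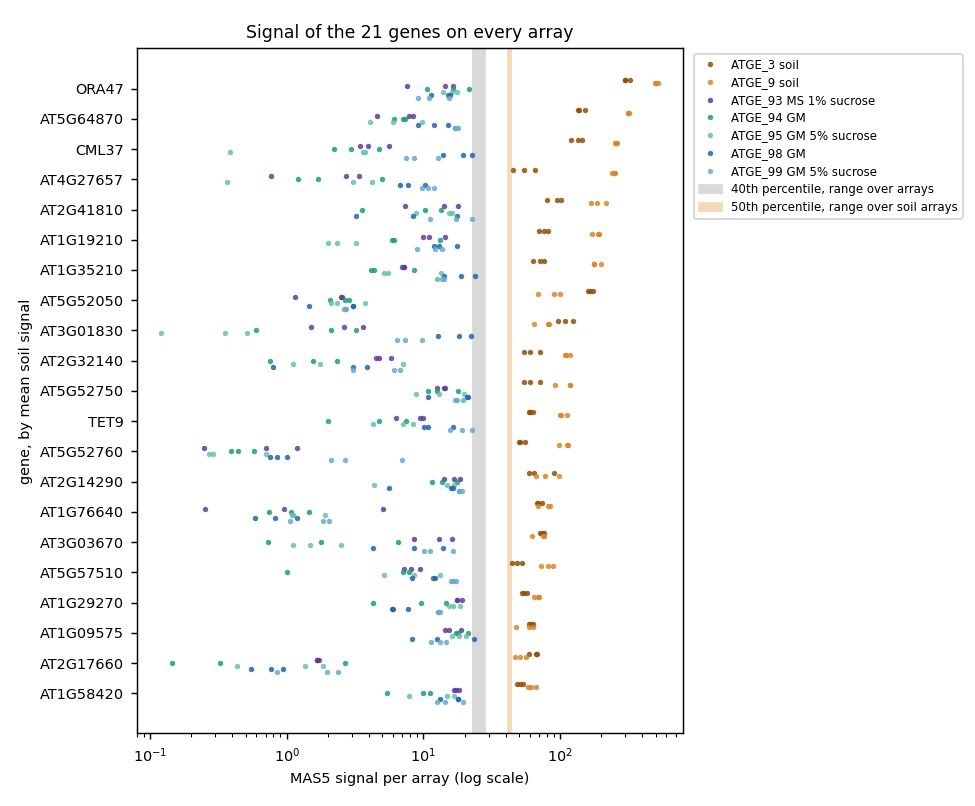
Signal on each of the 21 arrays (horizontal, log scale) for each of the 21 genes (vertical, ordered by mean soil signal), with 1 point per array coloured by group. The grey band is the range of the 40th percentile over arrays and the orange band that of the 50th percentile over the soil arrays. Soil points sit to the right of both bands and plate points to the left of or inside the grey band, which is how the genes were selected. ORA47 is the farthest right, and AT5G52050, AT2G17660, AT1G76640 and AT5G52760 stay at 7.00 or less on all plate arrays.

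The plot of signals on every array shows how the genes vary within that selection. Plate signals, all dim, are not ranked. Among soil replicates the coefficient of variation, the SD as a percentage of the mean, ran from 3.16% (AT1G09575) to 23.6% (AT2G14290) in ATGE_3, with a median of 6.62%. In ATGE_9 it ran from 1.202% (AT5G64870) to 20.0% (AT2G14290), with a median of 8.22%. AT2G14290 was the most variable gene in both soil groups.

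The members nearest the soil threshold were AT5G57510, at 44.4 against a 50th percentile of 43.9 on 1 array of ATGE_3, AT4G27657, at 45.3 against 42.8, and AT2G17660, at 47.1 against 42.8 in ATGE_9. Nearest the plate threshold were AT1G35210, at 23.7 against a 40th percentile of 25.8 on 1 array of ATGE_98, and ORA47 and AT1G09575, at 21.6 and 21.2 against 23.7 on 1 array of ATGE_94. Just outside lay the plastid gene rps14, which reached 27.1 against 26.8 on an ATGE_98 array, and AT1G56660, at 41.7 against 42.8 on an ATGE_3 array. The calmodulin-like gene CML38 (AT1G76650) missed by 1 plate array, at 27.7 against 26.8. The number of genes depended on the thresholds: it was 7 with the soil threshold at the 60th percentile, 6 with the plate threshold at the 30th and 81 with the plate threshold at the 50th.

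**Figure D2:**
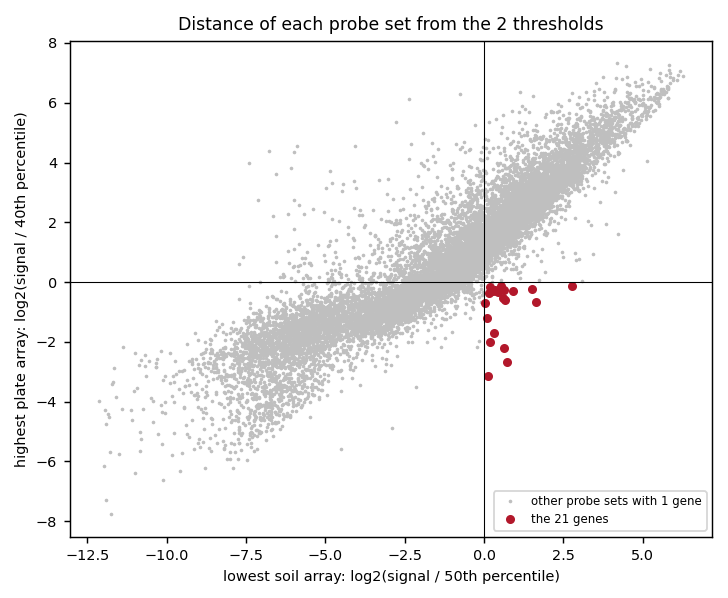
Each point is a probe set with 1 gene. The horizontal axis is log2 of its signal over the array's 50th percentile on its lowest soil array, and the vertical axis is log2 of its signal over the array's 40th percentile on its highest plate array. The 21 genes (red) fill the lower right quadrant that defines them, and most of them lie close to one of its 2 edges.

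The plane of distances from both thresholds shows that these genes form the edge of a continuous cloud and not a separate group. ORA47 is the red point farthest from the soil edge.

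The contrast that did not enter the selection is the one between the soil groups, because both had to meet the same criterion. In the model of all 21 arrays, 6 of the 21 genes were higher in ATGE_9 than in ATGE_3 and 0 were lower (limma, adjusted p under 0.05). Over all 15284 tested probe sets 11.4% were called higher and 15.3% lower. Among the 10306 probe sets above the 50th percentile on all soil arrays, the share was 12.6% higher and 15.7% lower. The median log2 difference was 0.74 over the 21 genes and −0.042 over all tested probe sets. The balance over all probe sets rests on the scaling, with 1742 higher and 2339 lower as deposited and 2146 higher and 1772 lower after each array was centred on its median. The genes' own count was 6 higher and 0 lower under both.

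The standard errors of that model include the spread of the dim plate signals, which on a log scale is wide. For the 21 genes they ran from 0.25 (ORA47) to 0.97 (AT2G17660) on the log2 scale, against 0.054 (ORA47) to 0.17 (AT2G14290) in a model of the 6 soil arrays alone. In the latter 13 of the 21 genes were higher in ATGE_9 and 3 were lower, beside 13.6% higher and 17.8% lower over all tested probe sets. Without any model, all 3 arrays of ATGE_9 lay above all 3 of ATGE_3 for 14 genes, all 3 of ATGE_3 above all 3 of ATGE_9 for 3, and the groups overlapped for 4. Among the 10306 probe sets just mentioned, these shares were 20.5% with ATGE_9 above and 28% with ATGE_3 above. Adjusted p-values below are given for the model of all 21 arrays first and for the soil arrays second.

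**Figure D3:**
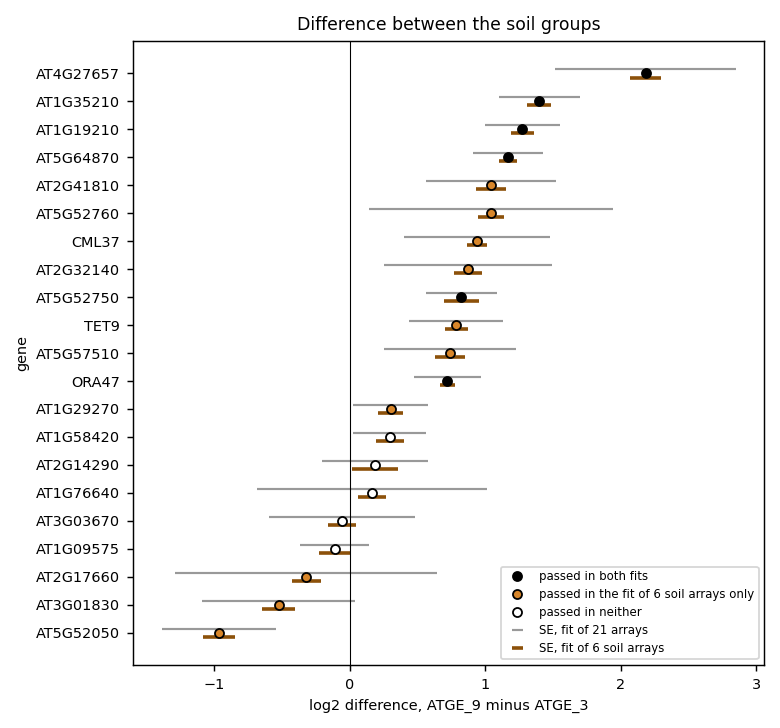
Log2 difference of ATGE_9 minus ATGE_3 (horizontal) for the 21 genes (vertical). Grey lines are ± 1 standard error in the model of 21 arrays and brown lines in the model of the 6 soil arrays. Filled black points passed in both models, orange points in the soil model only and open points in neither. The differences run from −0.97 for AT5G52050 to 2.18 for AT4G27657, and the 6 black points all lie to the right of 0.

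Both AP2/ERF transcription factor genes were higher in ATGE_9. ORA47 (AT1G74930), known as an activator of jasmonate synthesis genes, gave signals of 299, 301 and 323 in ATGE_3 and 507, 518 and 494 in ATGE_9. On the 15 plate arrays its lowest, median and highest signals were 7.55, 15.1 and 21.6. The soil groups did not overlap, and the soil signal was at least 12.8-fold above plates in ATGE_3 against ATGE_94 and at least 19.5-fold in ATGE_9 against ATGE_98. The log2 difference between the soil groups was 0.72 ± 0.25 (SE; adjusted p = 0.0338 and 2.0e-06). In the model of all arrays the ORA47 call was lost when any 1 of the 6 soil arrays was left out, with adjusted p from 0.0620 to 0.0884.

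The other AP2/ERF gene, AT1G19210, gave 76.6, 69.7 and 81.9 in ATGE_3 and 170.0, 193 and 189 in ATGE_9. Its plate signals had a median of 10.97 and a highest value of 17.6. Every ATGE_9 array was thus above every ATGE_3 array, with a log2 difference of 1.28 ± 0.28 (adjusted p = 0.00115 and 8.7e-07).

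Of the genes with a role in calcium, 1 was higher in ATGE_9, 1 was lower and 2 did not pass in the soil model, and none of the 4 passed in the model of all arrays. CML37 (AT5G42380), a calmodulin-like protein, gave 121, 144 and 136 in ATGE_3 and 255, 252 and 259.8 in ATGE_9. On plates it ranged from 0.386 to 22.9 with a median of 4.69. All of these plate signals are dim. The soil groups differed by 0.94 ± 0.54 (adjusted p = 0.213 and 2.5e-06), and ATGE_9 was at least 9.84-fold above ATGE_98.

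AT3G01830, another EF-hand gene of the calmodulin-like type, ran the other way, with 108, 124 and 96.1 in ATGE_3 and 81.8, 82.4 and 64.3 in ATGE_9. Its difference was −0.53 ± 0.56 (adjusted p = 0.539 and 0.00668). On plates its highest array reached 22.3, and the median was 3.21. AT1G76640, also calmodulin-like, gave 74.2, 68.7 and 67.4 in ATGE_3 and 82.2, 84.7 and 69.4 in ATGE_9, which overlap. It stayed at 5.04 or less on every plate array, with a median of 1.09, and the soil groups differed by 0.16 ± 0.85 (adjusted p = 0.910 and 0.245).

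AT1G09575, of the mitochondrial calcium uniporter family, was close to both thresholds. It gave 61.6, 59.1 and 62.9 in ATGE_3 and 59.3, 63.7 and 47.9 in ATGE_9, and from 8.22 to 23.6 on plates with a median of 16.1. The soil groups overlapped and differed by −0.11 ± 0.25 (adjusted p = 0.788 and 0.508). Without the third ATGE_9 array that value turned to 0.0070.

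Of 3 genes of membranes and transport, 1 passed in the model of all arrays, AT5G64870. It encodes a flotillin-like protein and gave 135, 152 and 137 in ATGE_3 and 321, 317 and 313 in ATGE_9. Its plate signals had a median of 8.38 and a highest value of 17.9, so ATGE_9 was at least 12.2-fold above ATGE_98. It rose by 1.17 ± 0.26 from ATGE_3 to ATGE_9 (adjusted p = 0.00132 and 1.7e-07), with the ATGE_9 arrays closer together than those of any other of the 21 genes. TET9 (AT4G30430), a tetraspanin, gave 60.3, 63.1 and 59.1 in ATGE_3 and 113, 102 and 100.02 in ATGE_9, against a plate median of 9.42. These do not overlap, and the difference was 0.79 ± 0.35 (adjusted p = 0.100 and 4.1e-05).

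AT5G52050, listed under the synonym DTX50 and encoding a MATE efflux carrier, gave 174, 159.6 and 167 in ATGE_3 and 89.8, 69.2 and 99.6 in ATGE_9, and between 1.15 and 3.75 on plates. The soil signal was at least 6.96-fold above plates in ATGE_3 against ATGE_94 and at least 3.28-fold in ATGE_9 against ATGE_98. Of the 21 genes it was the one with the most negative difference between the soil groups, at −0.97 ± 0.42 (adjusted p = 0.0982 and 8.3e-05). Every ATGE_3 array lay above every ATGE_9 array.

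AT5G52750 and AT5G52760 are adjacent genes on chromosome 5, and both encode small proteins with a heavy-metal-associated domain. AT5G52750 gave 54.4, 70.8 and 59.9 in ATGE_3 and 118, 118 and 91.6 in ATGE_9. AT5G52760 gave 55.3, 50.5 and 51.1 in ATGE_3 and 112, 115 and 97.9 in ATGE_9. Soil levels of the pair were thus alike in pattern, with differences of 0.82 ± 0.26 (adjusted p = 0.0230 and 4.7e-04) and 1.04 ± 0.90 (adjusted p = 0.431 and 8.6e-06). Both were dim on all plate arrays, at most 21.2 for AT5G52750 and 7.00 for AT5G52760. In the model of all arrays the AT5G52750 call was lost without the first or the third ATGE_3 array or the first or second ATGE_9 array, with adjusted p from 0.0610 to 0.0870. Cross-hybridisation between the probes of the pair was not examined.

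Among genes with an immune-type domain, AT2G32140, with a TIR domain, gave 60.4, 70.9 and 54.2 in ATGE_3 and 111, 108 and 118 in ATGE_9. It was at most 7.10 on plates, and the soil groups, which did not overlap, differed by 0.87 ± 0.62 (adjusted p = 0.328 and 8.0e-05). AT2G17660, with a RIN4/NOI domain, gave 66.3, 67.5 and 59.6 in ATGE_3 and 47.1, 56.6 and 51.1 in ATGE_9, and at most 2.66 on plates. Here ATGE_3 was the higher group on all arrays, with a difference of −0.32 ± 0.97 (adjusted p = 0.844 and 0.0410). That call in the soil model was lost without the first or second ATGE_3 array or the first or the third ATGE_9 array, with adjusted p from 0.0821 to 0.135.

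Cell wall genes gave 1 call in the soil model and 1 overlap, and neither gene passed in the model of all arrays. AT2G41810, of a plant family of secreted cell wall proteins, gave 80.1, 102 and 94.8 in ATGE_3 and 168, 188 and 217 in ATGE_9, against a plate range of 3.22 to 22.7. Its arrays did not overlap, and the difference was 1.05 ± 0.48 (adjusted p = 0.116 and 3.0e-05). AT3G03670, a class III peroxidase gene, gave 70.8, 76.5 and 74.3 in ATGE_3 and 76.2, 74.7 and 62.6 in ATGE_9. That is an overlap, with a difference of −0.058 ± 0.54 (adjusted p = 0.951 and 0.701) and a value of 0.032 without the third ATGE_9 array.

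The other 6 genes carry no symbol in the tables and no role is given for them. AT4G27657 had the largest difference between the soil groups, with 45.3, 54.1 and 65.98 in ATGE_3 and 241, 249 and 253 in ATGE_9, and a plate maximum of 11.9. It was 2.18 ± 0.67 higher in ATGE_9 (adjusted p = 0.0171 and 1.3e-07), a call lost in the model of all arrays without the first ATGE_3 array (adjusted p = 0.0596) or the second ATGE_9 array (adjusted p = 0.0507). AT1G35210 gave 76.2, 63.9 and 71.1 in ATGE_3 and 178, 201 and 178 in ATGE_9, a difference of 1.40 ± 0.30 (adjusted p = 0.00103 and 5.2e-07). Its plate median was 8.50. For both genes all ATGE_9 arrays lay above all ATGE_3 arrays by a wide margin.

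AT5G57510 gave 52.4, 44.4 and 48.6 in ATGE_3 and 88.3, 72.6 and 82.0 in ATGE_9, a difference of 0.74 ± 0.49 (adjusted p = 0.288 and 3.6e-04). AT1G29270 gave 54.7, 53.0 and 57.2 in ATGE_3 and 69.8, 68.8 and 64.8 in ATGE_9, a difference of 0.30 ± 0.28 (adjusted p = 0.462 and 0.0292). The soil groups of both were apart, but the second call was lost without the first or second array of either soil group, with adjusted p from 0.0557 to 0.0932. AT1G58420 gave 48.0, 50.9 and 53.7 in ATGE_3 and 58.3, 67.2 and 61.7 in ATGE_9, also apart, at 0.29 ± 0.27 (adjusted p = 0.459 and 0.0503). AT2G14290 gave 64.4, 59.1 and 90.5 in ATGE_3 and 77.0, 66.7 and 98.4 in ATGE_9, which overlap, at 0.18 ± 0.39 (adjusted p = 0.773 and 0.448).

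A measure of RNA integrity also moved between the soil groups. The 3'/5' signal ratio of the actin control was 2.38 ± 0.104 in ATGE_3 and 1.76 ± 0.140 in ATGE_9 (SD, n = 3), and that of GAPDH was 1.38 ± 0.0626 and 1.17 ± 0.0364. A higher ratio means that signal falls off more toward the 5' end. The part of RNA integrity, and of the soil recorded in the ATGE_3 tissue, in the differences between the soil groups was not tested.

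In the contrast of soil with GM plates (the mean of ATGE_3 and ATGE_9 against the mean of ATGE_94 and ATGE_98), all 21 genes were called higher, beside 39.2% of all tested probe sets called higher and 35.3% called lower. The selection fixed that count and nothing is read from it. The contrast is used here for relatives and chromosomal neighbours of the 21 genes, which the selection did not choose for it but whose families were picked after the 21 genes were known.

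CML38 and CML23 were higher on soil among 6 other calmodulin-like genes with a symbol and a probe set of 1 gene. CML38 (AT1G76650), adjacent to AT1G76640, had soil means of 391 ± 20.8 in ATGE_3 and 390.0 ± 20.7 in ATGE_9 (SD, n = 3), against 9.70 ± 1.04 in ATGE_94 and 23.0 ± 5.11 in ATGE_98. It was brighter on soil than any plate array by a wide margin, at log2 4.72 ± 0.23 and at least 15.6-fold (adjusted p = 6.7e-15), and the soil groups differed by −0.0046 ± 0.32 (adjusted p = 0.994). CML23 (AT1G66400) gave 119 ± 5.16 and 229 ± 25.0 on soil, against 18.2 ± 1.27 in ATGE_94 and 25.8 ± 8.24 in ATGE_98, a difference of 2.95 ± 0.12 (adjusted p = 1.8e-16). CML23 was dim on all arrays of ATGE_94 and on 2 of ATGE_98, and was at least 6.31-fold higher on soil. It exceeded the 40th percentile on all arrays of ATGE_93 and ATGE_99 and so was no member, and it rose by 0.94 ± 0.17 from ATGE_3 to ATGE_9 (adjusted p = 0.000135).

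In all, 2 of these 6 genes were higher on soil and 3 were lower, beside 39.2% and 35.3% of all tested probe sets. CML42 (AT4G20780) had means of 104 ± 9.24 and 88.7 ± 7.07 on soil against 197 ± 10.2 and 241 ± 6.95 on GM, a difference of −1.18 ± 0.057 (adjusted p = 7.7e-15). CML30 and CML43 fell by 0.28 and 0.21 on the log2 scale (adjusted p = 0.0328 and 0.0230), and CML41 gave −0.31 ± 0.15 (adjusted p = 0.0618). A higher signal on soil was thus not common to all measured genes of this family.

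**Figure D4:**
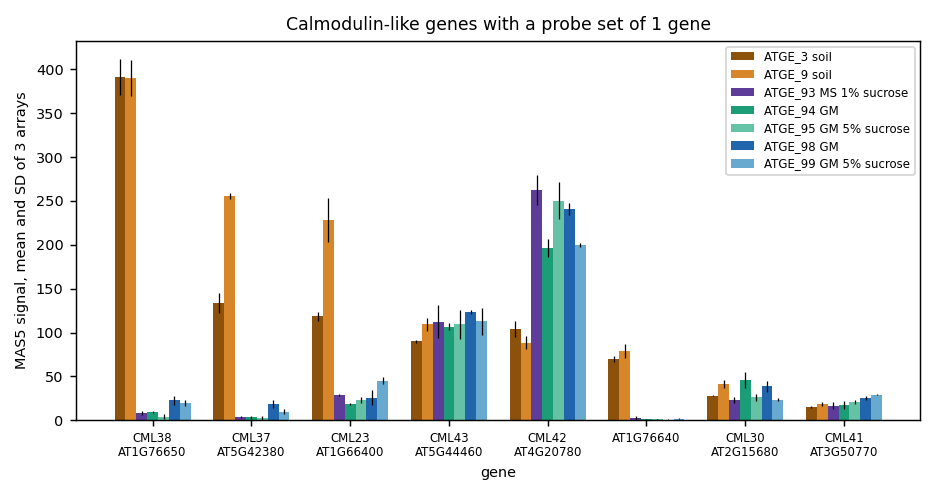
Mean signal with SD over 3 arrays (vertical, linear, from 0) in each of the 7 groups for 8 calmodulin-like genes. They have a probe set of 1 gene and a CML symbol or synonym, and 2 of them (CML37 and AT1G76640) are among the 21. AT3G01830, also among the 21, has no such symbol or synonym and is not shown. CML38, CML37, CML23 and AT1G76640 stand high in both soil groups and low on plates, which the selection fixed for CML37 and AT1G76640. CML42 is higher on plates, and the others differ little.

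In the bars for calmodulin-like genes CML37 and AT1G76640 stand out on soil because they were selected for it. Of the genes not selected, CML38 and CML23 also stand out, and CML42 has the opposite order. For the tetraspanins, the family of TET9, 8 other genes were tested, of which 3 were higher on soil and 5 lower, beside 39.2% and 35.3% of all tested probe sets. TET7 was the highest at 0.89 ± 0.051 (adjusted p = 1.8e-13), and TET6 the lowest at −1.49 ± 0.070 (adjusted p = 4.0e-15).

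The 21 genes have 42 neighbouring protein-coding genes in the RefSeq table, of which 24 had a probe set with 1 gene and 2 were themselves members, the pair AT5G52750 and AT5G52760. Of the 22 others, 19 were tested, and 9 were higher and 4 lower on soil than on GM, beside 39.2% and 35.3% of all tested probe sets. The count of higher neighbours is near that share. AT4G27654, next to AT4G27657, was at 357 ± 18.2 in ATGE_3 and 586 ± 21.3 in ATGE_9, against 9.23 ± 3.91 in ATGE_94 and 24.9 ± 1.995 in ATGE_98. That is at least 18.2-fold higher on soil (log2 4.97 ± 0.17, adjusted p = 5.8e-18). It was not dim on any ATGE_99 array, where its mean was 40.8 ± 6.73, and like AT4G27657 it was higher in ATGE_9 than in ATGE_3, by 0.71 ± 0.23 (adjusted p = 0.0260).

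AT2G41800, next to AT2G41810 and of the same cell wall family, was well above the threshold everywhere, with means of 351 ± 11.5 and 421 ± 50.3 on soil and 231 ± 26.0 and 105 ± 11.9 on GM. It was higher on soil by 1.305 ± 0.069 (adjusted p = 4.1e-14). AT3G03680, next to the peroxidase gene AT3G03670, was higher by 1.14 ± 0.093 (adjusted p = 1.3e-10), and ALDH10A8, next to ORA47, by 0.36 ± 0.044 (adjusted p = 9.9e-08). The 4 neighbours lower on soil were AT1G35190 (−0.71 ± 0.066), SPP (−0.60 ± 0.080), AT2G32150 (−0.15 ± 0.043) and AT1G19200. The last was dim on all soil and GM arrays without added sucrose. AT5G52740 and AT5G52770, which flank the adjacent pair, were too dim to be tested.

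None of the 21 genes was on any of 14 lists of root, shoot, defence, nutrient and stress genes, which hold 289 entries, and few entries had a probe set with 1 gene. For root identity 3 of 22 were tested and 3 fell on soil, beside 35.3% of all tested probe sets called lower. They were the root hair expansins EXPA7 (−1.70 ± 0.13) and EXPA18 (−1.52 ± 0.052), and the root beta-glucosidase PYK10 (−0.13 ± 0.059, adjusted p = 0.0458). PYK10 was at 2982 ± 95.1 in ATGE_3 and 2399 ± 35.5 in ATGE_9, so it was bright on all soil arrays. EXPA18 was dim on no soil array, and EXPA7 was dim on 1 array of ATGE_3. EXPA7 was at 38.6 ± 14.6 in ATGE_3 and 32.1 ± 0.816 in ATGE_9, and EXPA18 at 66.2 ± 5.04 and 32.1 ± 1.60. On plates the lowest arrays of EXPA7 and EXPA18 gave 75.1 and 105. The PYK10 call was lost after median centring (adjusted p = 0.0574), and its value was 0.19 in ATGE_3 against ATGE_94 alone.

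Of 44 photosynthesis genes 8 were tested, and all 8 were called lower on soil, beside 35.3% of all tested probe sets. Their median of −1.95 includes dim soil signals. Every gene but LHCB4.1 was dim on all arrays of ATGE_3, of ATGE_9 or of both. For these dim genes the lower bounds started at 1.06-fold lower on soil (PRK). RCA (Rubisco activase), dim in ATGE_9, was at least 7.53-fold lower on soil, and LHCB4.1, a light-harvesting protein, was at −2.15 ± 0.070. The summed signal of all 8 genes ran from 201 to 220.1 on ATGE_3 arrays, from 152 to 184 on ATGE_9 arrays, and from 455 to 876 on plate arrays. The 4 shoot epidermis and flower genes with a probe set, of 17 listed, were dim everywhere and not tested. The part of other tissue in the signals of the 21 genes was not tested.

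Marker genes of defence hormones were mostly dim or unmeasured. Of 27 jasmonate and ethylene genes 4 had a probe set, namely PDF1.2, PDF1.2b, LCR67 and THI2.1, and all were dim on every array, at most 13.4. For salicylic acid 1 of 20 was tested, SAG101, at 0.33 ± 0.16 (adjusted p = 0.0590), and at 0.47 without the first ATGE_98 array (adjusted p = 0.00674). For camalexin and indole glucosinolates 1 of 15 was tested, AT1G26380, which was dim on all soil arrays and at least 1.42-fold lower there than on GM (adjusted p = 1.5e-11).

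Of the senescence list 2 of 11 were tested. WRKY53, a transcription factor of senescence and defence, rose by 0.62 ± 0.12 (adjusted p = 9.7e-05), and its signal went from 48.5 ± 3.11 in ATGE_3 to 152 ± 7.02 in ATGE_9, a difference of 1.65 ± 0.18 (adjusted p = 1.4e-07). In ATGE_3 against ATGE_94 alone WRKY53 gave 0.31 (adjusted p = 0.123). WRKY6 fell by 1.81 on the log2 scale. The dehydration and cold genes COR47 and LTI30, 2 of 20, fell by 0.77 and 1.69.

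For terpenoids 2 of 20 were tested: TPS-CIN, a terpene synthase, which was dim in ATGE_9, was at least 12.9-fold lower on soil (adjusted p = 7.2e-20), and AT5G48110 rose by 0.35 ± 0.073, a value of −0.093 in ATGE_3 against ATGE_94 alone. GUT2 was the 1 tested of 27 secondary wall genes, at −0.20 ± 0.076 (adjusted p = 0.0223), a call lost without the first ATGE_3 array (adjusted p = 0.0657) or the second ATGE_9 array (adjusted p = 0.0647). The seed storage (9), suberin and cutin (18) and phosphate starvation (22) lists had no probe set with 1 gene, and the 1 such gene of 17 nitrogen genes, NRT2.5, was dim everywhere.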

How the data were processed

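Total RNA of Arabidopsis roots was hybridised to 21 single-colour Affymetrix ATH1 arrays. The deposited values are linear intensities (signals) that the authors computed with MAS5, per the labels and the submitters' processing notes. Its version is not given in the sources used here. After removal of the lowest and highest 2% the mean of each array was 100.007 to 100.008, so the arrays had been scaled to a common mean, which was kept. Detection calls were not used. Array number limits the precision.

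The 21 genes and the gene lists were chosen with earlier results of these data known, and families and neighbours were picked from the 21 genes. All 21 genes could be named, with up to 3 genes of each list by adjusted p in soil against GM, and the genes just inside and just outside the thresholds. Other genes named, among relatives and neighbours, were chosen after their values were seen. Gene names came from the platform annotation and the RefSeq table of TAIR10.1, used for names and neighbours only. That table gives CML39 as a synonym of both AT5G42380 and AT1G76640, so it is not used. Promoter motifs and protein features were not analysed here.

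Control probe sets (64 of 22810) were left out. A probe set was tested if 3 or more arrays gave a signal above their own 40th percentile, which left 15284. Log2 signals, with no pseudocount, were fitted with limma 3.58.1 in R 4.3.3 (a mean for each of 7 groups, 14 residual degrees of freedom, intensity trend). Tests were two-sided with Benjamini-Hochberg adjustment over all tested probe sets, and the threshold was 0.05. The procedure was checked on simulated data in which each probe set had the same spread in all groups. The wider spread of dim plate signals was thus not simulated. The model of the 6 soil arrays was an alternative, and leaving out each of its arrays was added after seeing the data. Pairing by replicate letter was checked only between ATGE_3 and ATGE_9 and between ATGE_94 and ATGE_98. Letters did not pair samples there: deviations of same-lettered samples correlated between −0.068 and 0.059. Tables and plots used Python 3.11.15, pandas 2.3.3 and matplotlib 3.10.9. Values after ± are SD for signals and SE for log2 differences.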

Additional observations from a re-analysis of the deposited data

How the results depend on the processing

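Alternatives were 2 scalings (quantile normalization and median centring), no filter or one at the 60th percentile, a pseudocount of 6.99, no intensity trend, a fit of only the groups compared, a block for the replicate letter, and leaving out each array. The count of 6 genes higher in ATGE_9 became 12 with the pseudocount, 13 with only the groups compared, and 3 to 5 with 1 array left out. The count of 0 lower became 2 with the pseudocount, 3 with only the groups compared and 1 with no intensity trend, and was 0 with any 1 array left out. With the replicate block it stayed at 6 and 0, and probe sets past the threshold were 4052 against 4081 without the block for the soil groups, and 11370 against 11394 for soil against GM. With 1 array left out these totals were 3237 to 3491 and 11014 to 11218. In the soil model, 12 to 13 genes were higher and 2 to 3 lower with 1 array left out. The number of genes selected, 21, became 7 with the soil threshold at the 60th percentile, 6 and 81 with the plate threshold at the 30th and 50th, 25 without the ATGE_93 arrays, and 21 to 23 without 1 array, and the 21 genes were retained in the last 2 cases. Differences reversed for AT3G03670 (0.032) and AT1G09575 (0.0070) without ATGE_9 replicate 3 in both models (with 1 array left out they ran from −0.11 to 0.032 and from −0.20 to 0.0070), for PYK10 (AT3G09260, 0.19) and AT5G48110 (−0.093) in ATGE_3 against ATGE_94 alone, and for SAG101 (AT5G14930, −0.083) in ATGE_9 against ATGE_98 alone. The cause was not tested. Among single genes and settings, the soil contrast kept direction and call in 256 cases, gained a call in 19 and lost it in 14. Of soil against GM, 307 kept both, 3 gained and 16 lost the call. PYK10 lost its call without any array of ATGE_3 or ATGE_9, without ATGE_94 replicate 3 and without ATGE_98 replicate 1 or 2 (adjusted p from 0.0543 to 0.180). The signals on plates lie too low to order the genes there, and 3 arrays a group limit what can be called.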
